A study of Mus musculus with 2 samples.

Results

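The NF-kB genes studied here are 5 subunits of the transcription factor (Nfkb1, Nfkb2, Rel, Rela and Relb), 3 of its IkB inhibitors (Nfkbia, Nfkbib and Nfkbie) and the feedback genes Tnfaip3 and Ier3. They were taken as a named list of 10 genes, and every gene probe whose RefSeq accession matched one of them was kept. Earlier results of these arrays were known when the list was made, so all values below describe it and none is a test. Of the 10 genes, 9 had a matched probe, with 10 probes on 19 spots in all, and 8 were well above background on both arrays. Over all genes, 17302 had a matched probe and 12855 were well above background on both arrays. Nfkb1 was not analysed here, because no probe matched it.

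The cells were a mouse hybridoma, 1H5F9 in the labels, an immortal antibody-producing line that arises when a B cell is joined to a plasma cell tumour. It is 1 line, and as a fused tumour cell it is not a model of a resting B cell. Cultures in RPMI 1640 with 20% fetal bovine serum, heat-inactivated, were given 0 µg/ml (untreated) or 5 µg/ml of BSP-II, a peptide of the avian bursa of Fabricius, for 4 h. RNA of each was labelled with Cy3 and hybridised to a 1-colour Agilent mouse array, 1 array per dose. The series' text speaks of 2 experiments with different cells, but both arrays carry replicate number 1. The comparison asks which immune genes differ in hybridoma cells exposed to the peptide. With 1 array per dose there is no spread between replicates and no p-value, so "higher" and "lower" are statements about these 2 arrays.

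NF-kB is a family of dimeric transcription factors. In resting cells the dimers are held in the cytoplasm by IkB proteins. Signals from receptors of the TNF, Toll-like and antigen receptor families activate the IkB kinase complex, IkB is phosphorylated and degraded, and the dimers enter the nucleus. A second, slower branch through the kinase NIK processes the Nfkb2 precursor and releases dimers with RelB. Several genes of the system are themselves NF-kB targets: newly made IkB alpha and the ubiquitin-editing enzyme encoded by Tnfaip3 shut the signal off again. B cells and plasma cells rely on both branches for survival.

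Both arrays carried 45018 spots and none of the gene spots was saturated. Of 41163 gene probes, 24681 were well above background without the peptide and 27283 with it. The 75th percentile of the signal was 309 and 356, a 1.15-fold gap that was removed by scaling before differences were taken. The lowest signal well above background was 11.8 (untreated) and 7.66 (BSP-II). Of 15 B cell and plasma cell markers, 14 passed that limit on both arrays, among them Jchain (150869 and 155073), Sdc1 (11219 and 12123) and Xbp1 (8889 and 10932), the first 2 named after their values were seen. The exception was the B cell factor Pax5 (2.77 and 5.08). The summed signal of the 14 before scaling, mostly Jchain, was 263734 untreated and 280601 with BSP-II. The dimmest of them were the B cell genes Cd79a (23.7 and 22.3) and Ebf1 (23.2 and 25.1). After scaling, the median log2 difference (BSP-II minus untreated) of these 14 was −0.13, and 3 of them lay above the median of all genes. Markers of other cells passed on both arrays for 6 of 8 T cell genes (summed unscaled signal 853 and 891), 3 of 8 myeloid (127 and 177), 4 of 5 fibroblast (104 and 116), 1 of 4 endothelial (72.1 and 63.3), 4 of 4 epithelial (4612 and 5436, mostly Epcam at 4123 and 4781) and 2 of 4 erythroid genes (299 and 316). The scaled medians of these groups were −0.29 for T cell, 0.17 for myeloid, −0.15 for fibroblast, −0.39 for endothelial, 0.09 for epithelial and −0.10 for erythroid genes. The 3 myeloid markers that passed were dim and went different ways: Csf1r (0.90, but −0.75 at another probe), Adgre1 (0.17) and Cd14 (−0.69). The myeloid markers Lyz2, S100a8 and S100a9, named after their values were seen, were not well above background on either array. In a bulk sample, fewer cells of a type and less RNA per cell cannot be told apart. The part of these markers in the results was not tested.

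Promoters of the members are shown because NF-kB acts through kappaB sites, the DNA elements it binds, and several of these genes are themselves NF-kB targets. RefSeq's promoter table (GRCm38.p6) held 8 of the 10 members, with 11 transcription starts. The 250 bases before each start were searched on both strands for the kappaB consensus, named here because its letters are degenerate, and for GGAANTTCC, a shorter form chosen after the sequences were seen, which can overlap the consensus. The consensus matched in 6 of the 8 members, and in 8 of their 11 windows, against 7.25% of all 32851 windows of that length. The shorter form matched in 3 of the 8 members (Nfkbia, Tnfaip3 and Ier3) and in 0.813% of all windows. Because it was chosen after the members' sequences were seen, the background share cannot show an excess among them. Members and windows are also different units. A match is only a match of letters. The windows of the 5 members that either differed most between the arrays or are the classical feedback genes follow, 5′ to 3′, ending at the base before the start, with matches to either motif in capitals. Where a gene has several starts, the one farthest upstream is shown.
Ier3 (GRCm38.p6 chr17:35821463-35821712, plus strand): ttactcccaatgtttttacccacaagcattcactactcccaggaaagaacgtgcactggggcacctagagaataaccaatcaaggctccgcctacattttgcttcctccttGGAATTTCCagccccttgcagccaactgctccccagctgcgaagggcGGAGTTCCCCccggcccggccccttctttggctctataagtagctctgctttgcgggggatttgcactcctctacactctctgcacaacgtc
Nfkbie (GRCm38.p6 chr17:45555450-45555699, plus strand): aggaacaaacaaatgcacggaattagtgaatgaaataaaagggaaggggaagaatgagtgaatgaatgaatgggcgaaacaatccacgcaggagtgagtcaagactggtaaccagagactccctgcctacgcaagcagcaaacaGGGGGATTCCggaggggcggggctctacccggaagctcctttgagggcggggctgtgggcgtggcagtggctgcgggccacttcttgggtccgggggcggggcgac
Nfkbia (GRCm38.p6 chr12:55492648-55492897, minus strand): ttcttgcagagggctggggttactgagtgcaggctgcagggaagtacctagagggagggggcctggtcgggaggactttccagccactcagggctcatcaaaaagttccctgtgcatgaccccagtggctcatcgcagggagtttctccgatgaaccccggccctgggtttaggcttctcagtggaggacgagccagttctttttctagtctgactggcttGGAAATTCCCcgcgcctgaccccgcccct
Tnfaip3 (GRCm38.p6 chr10:19015411-19015660, minus strand): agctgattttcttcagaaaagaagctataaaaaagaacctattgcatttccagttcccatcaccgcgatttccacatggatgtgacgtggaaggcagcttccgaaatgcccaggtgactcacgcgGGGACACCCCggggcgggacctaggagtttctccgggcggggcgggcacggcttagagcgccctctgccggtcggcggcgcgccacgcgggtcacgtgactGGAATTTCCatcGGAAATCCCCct
Nfkb2 (GRCm38.p6 chr19:46304487-46304736, plus strand): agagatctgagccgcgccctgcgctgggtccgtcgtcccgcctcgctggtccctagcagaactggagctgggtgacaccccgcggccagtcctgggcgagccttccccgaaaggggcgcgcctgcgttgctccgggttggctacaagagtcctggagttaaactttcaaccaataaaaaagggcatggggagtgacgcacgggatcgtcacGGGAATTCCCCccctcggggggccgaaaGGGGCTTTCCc

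In Nfkbia the matches of both motifs overlapped and lay 29 to 20 bases before the start. In Tnfaip3 consensus matches lay at 125 to 116 and at 12 to 3 bases before the start, and the shorter form at 24 to 16. Ier3 held the consensus at 92 to 83 bases and the shorter form at 139 to 131 bases. Nfkbie held 1 consensus match, at 106 to 97 bases. The window of Nfkb2 shown held 3, of which the first 2 overlap. The window of Rel held 2 overlapping matches. Those of Rela and Nfkbib, and of the second start of Tnfaip3, held none in these letters.

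Every detected member had a difference above the median of all genes, nearly all by small amounts, except that Nfkbib fell below it with local medians subtracted and among brighter probes only. The exceptions in size were Ier3, a stress-response gene, which was 1.67-fold higher, and Nfkbie, the gene of IkB epsilon, which was 1.34-fold higher, both at low signals. The other 6 lay between 0.993-fold and 1.13-fold. The median log2 difference (BSP-II minus untreated) of the 8 members was 0.10, against −0.03 for all 12855 genes. All 8 lay above that all-gene median, where 50% of all genes lie by definition, and 7 of 8 lay above 0, where 44.7% of all genes lie. The share of all genes above 0 depends on the scaling: it was 67.7% when the array medians were set equal and 69.6% in the authors' deposited table, where all 8 members lay above 0. At least 1.5-fold higher was 1 of 8 (Ier3), against a background of 1.21% of all genes (156 genes). At least 1.5-fold lower was none, against 4.83% (621 genes). None was 2-fold higher or lower, against 0.202% and 1.00% of all genes. The balance of those calls over all genes depended on the scaling: 20.1% of called genes were higher as processed here, 44.7% when the array medians were set equal, 34.6% with quantile and 33.1% with loess scaling, and 54.6% in the authors' deposited table. Scaling to the median adds 0.12 to every log2 difference. The members were chosen with these values known, so their counts are not evidence that NF-kB genes as a class differed.

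**Figure D1:**
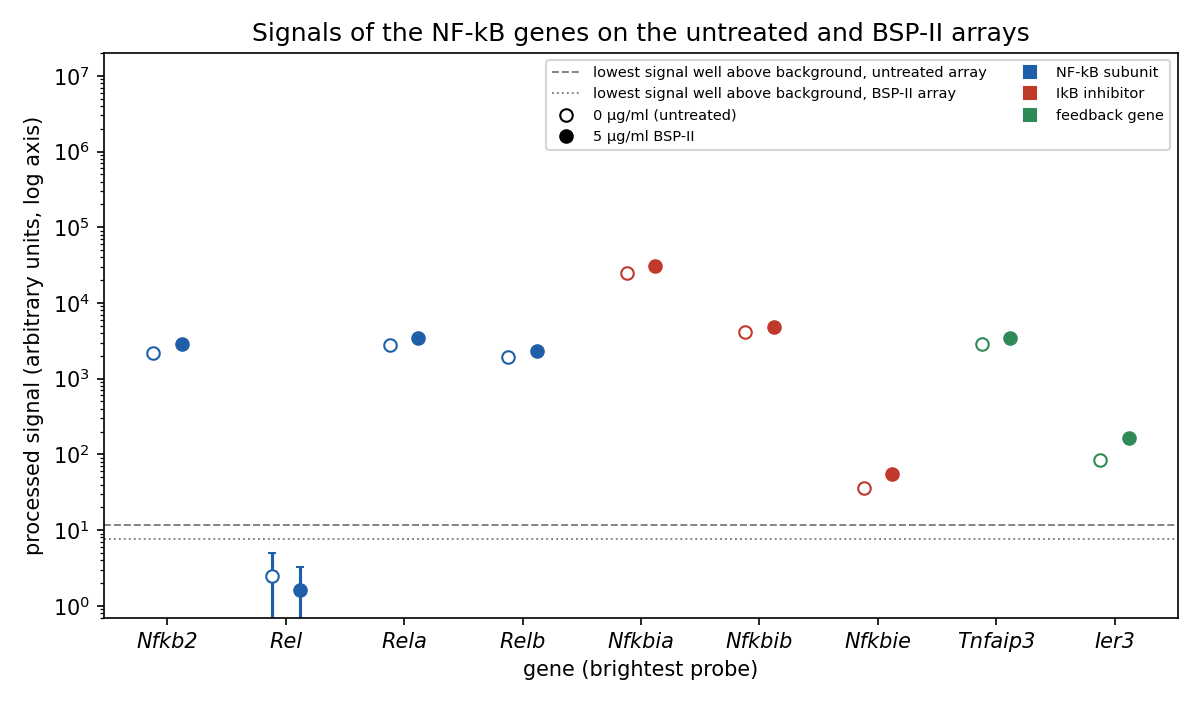
Processed signal (log axis) of the brightest probe of each member on the untreated array (open symbols) and the BSP-II array (filled), before scaling; bars are the scanner software's error, and colours give the role. Rel lies under the lowest signal well above background of both arrays (dashed and dotted lines), Nfkbie and Ier3 lie at 35.5 to 164, and the other genes lie at or above 1909 on both; signals of different probes are not comparable with each other.

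Each difference is given with the error that Agilent's Feature Extraction software assigns to a single spot's signal, carried to the log2 scale. This error was 0.20 for bright single spots and larger near background. Nfkb2 and Nfkbia had the same error (0.2040) despite their different signals. For bright spots it thus grows with the signal and is not a spread measured here. Among probes with repeated spots, the median SD of the log2 difference was 0.07. Lying inside or beyond the error is a description and not a test. For a probe on several spots the error was carried to their mean as if the spots were independent, so it is smaller there. Variation from culture to culture, or from one hybridisation to the next, is not part of it. As scaled here, only 2 of the 8 members, Ier3 and Nfkbie, differed from 0 by more than this error, and 33.6% of all genes did so. With the array medians set equal, Nfkb2 (0.30), Nfkbia (0.22), Tnfaip3 (0.22) and, narrowly, Relb (0.2047 against 0.2040) also exceeded it. They did so in the authors' deposited table too. The share of all genes beyond their error was not computed for those scalings.

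Among the subunits, Nfkb2, the precursor of the noncanonical branch, had the largest difference. It read 2177 untreated and 2841 with BSP-II. After scaling this was a log2 difference of 0.18 ± 0.20, inside its own error, but it was 0.30 when the array medians were set equal. The detected genes were divided into 4 equal bins by mean signal, and in the brightest bin, which holds Nfkb2, 6.85% of genes had a difference as high or higher.

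Relb encodes the partner of the processed Nfkb2 product. Its signal was 1909 untreated and 2330 with BSP-II, a log2 difference of 0.08 ± 0.20. As scaled here, both genes of the noncanonical dimer were thus brighter on the BSP-II array by less than the software's error. With the array medians set equal both exceeded it, Relb narrowly.

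Rela, the main activating subunit of the canonical branch, was measured by 2 probes. The brighter one read 2822 and 3399, a log2 difference of 0.06 ± 0.20. The other was printed on 10 spots spread over the array. Untreated, these 10 spots ranged from 293 to 378 with a median of 328, and with BSP-II from 365 to 405 with a median of 390. Before scaling, the spot at 378 was the only untreated one inside the BSP-II range. After scaling, the mean log2 difference of these spots was 0.03 ± 0.09 (SD, n = 10 spots of 1 probe), with the lowest spot at −0.18 and the highest at 0.11, and 8 of the 10 above 0. As scaled here, both probes of Rela gave differences inside their error. The spread of its repeated spots was about as large as the differences of Relb, Nfkbia and Tnfaip3. Across the 149 probes whose repeated spots were all well above background, the median SD of the log2 difference was 0.07.

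Rel encodes c-Rel, a subunit typical of lymphoid cells. Its only probe read 2.49 untreated and 1.63 with BSP-II, not well above background on either, so no fold can be given.

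Of the inhibitors, Nfkbia, which encodes IkB alpha and is the best known NF-kB feedback target, had signals of 24867 untreated and 30721 with BSP-II. Its log2 difference was 0.10 ± 0.20. In the brightest bin, 16.3% of genes had a difference as high or higher. As scaled here, the gene was thus within the software's error of no difference at 4 h. With the array medians set equal it was not (0.22).

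Nfkbib encodes IkB beta, an inhibitor with weaker ties to the feedback loop. Its signals were 4182 and 4786, a log2 difference of −0.01 ± 0.20, the lowest of the detected members. Its sign depended on the scaling: it was 0.11 both when the array medians were set equal and in the authors' deposited table.

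Nfkbie encodes IkB epsilon, an inhibitor made with delay after activation. It read 35.5 ± 4.60 untreated and 54.7 ± 5.75 with BSP-II (software error), with a log2 difference of 0.42 ± 0.24. In its bin, the dimmest, 5.76% of genes had a difference as high or higher, and 3.02% were at least 1.5-fold higher. The spot's raw median brightness was 86 and 97, and its local background 43 and 36. From the median signal without background subtraction the log2 difference was 0.01, and with normexp, a model-based background correction, 0.12. It rests on 1 spot.

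Of the feedback genes, Tnfaip3, which encodes a ubiquitin-editing inhibitor of NF-kB signalling, read 2834 and 3488. Its log2 difference was 0.09 ± 0.20, close to those of Nfkbia and Relb. In the brightest bin 17.2% of genes had a difference as high or higher.

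Ier3, an immediate early gene that modulates cell death, showed the largest difference of the members. It read 85.4 ± 9.10 untreated and 164 ± 16.5 with BSP-II, a log2 difference of 0.74 ± 0.21 and 3.48 times its software error. In its bin, the second dimmest, 0.653% of genes had a difference as high or higher and 1.28% were at least 1.5-fold higher. Over all genes, 0.615% were as high or higher. The raw median brightness was 121 and 181, and the local background 48 and 38. Without background subtraction the log2 difference was 0.42, and with normexp 0.50, both under 1.5-fold (0.58 on the log2 scale). In those settings 0.257% and 0.241% of all genes were at least 1.5-fold higher. The value of Ier3 rests on 1 probe with 1 spot.

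**Figure D2:**
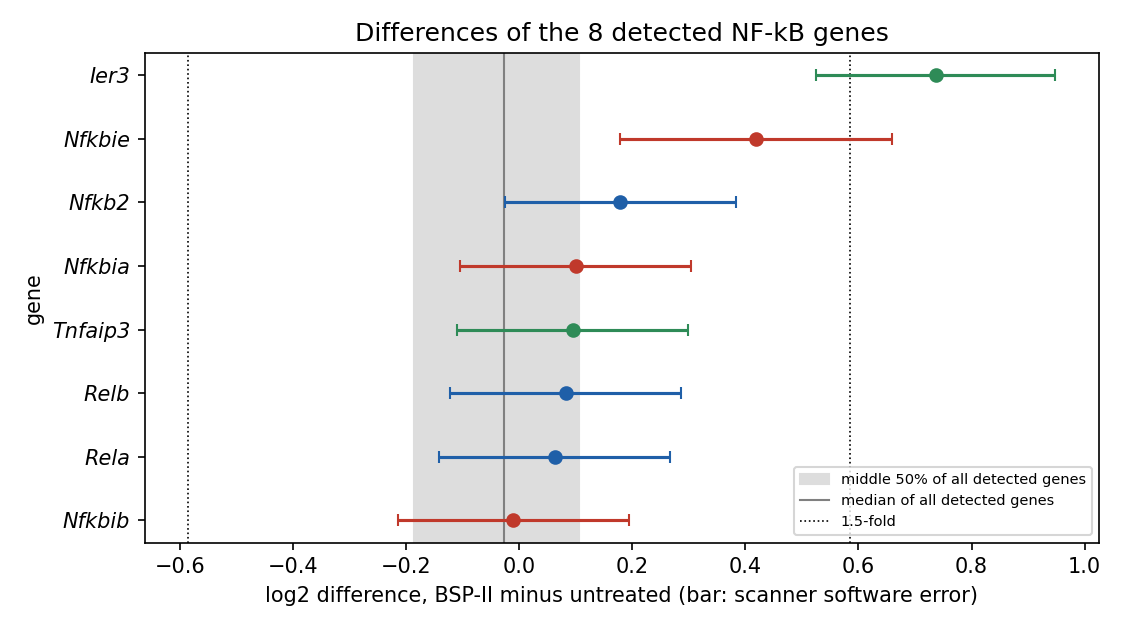
Log2 difference (BSP-II minus untreated) of the 8 detected members, coloured by role as in the plot of signals, with the scanner software's error as bars; the band holds the middle 50% of all detected genes and dotted lines mark 1.5-fold. The bars of Ier3 and Nfkbie do not reach 0, those of the other 6 do, and the sign of Nfkbib turns with the scaling.

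The spots of the members lay in different parts of the array. Around each single-spot member, the median log2 difference of the detected spots within 10 rows and columns ran from −0.10 near Nfkbia to 0.03 near Ier3. It was −0.02 near Nfkbie. When such local medians were subtracted from every spot, Ier3 stood at 0.70, Nfkbie at 0.44 and Nfkbia at 0.20.

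**Figure D3:**
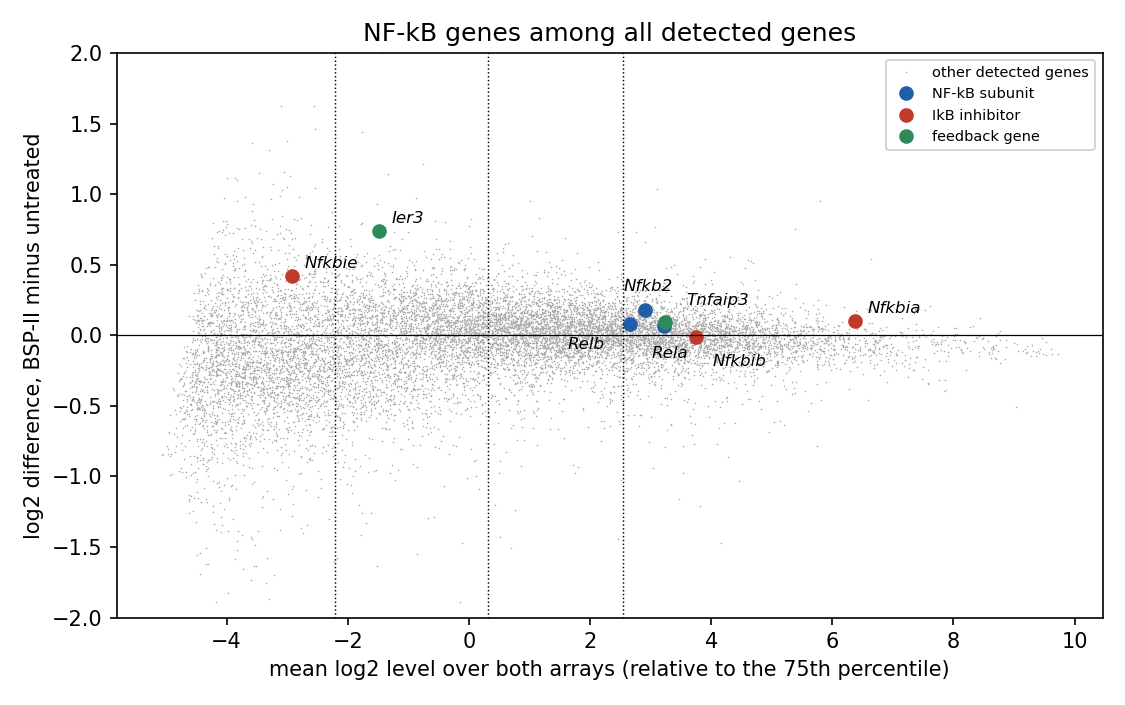
Log2 difference against mean log2 level of all 12855 detected genes (grey), with the NF-kB members coloured by role; dotted lines divide the genes into 4 equal bins of signal, and 15 genes lie beyond the axis. Ier3 and Nfkbie lie in the 2 dimmer bins, where the scatter is wide, and the other 6 lie in the brightest bin, where it is narrow.

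Scatter over all genes grew toward background. The SD of the log2 difference was 0.43 in the dimmest bin, 0.32 in the second, 0.20 in the third and 0.16 in the brightest. The median was −0.19 in the dimmest bin and −0.02 in the brightest. Nfkbie lay in the bin where 30.9% of genes were above 0. The 6 brightest members had differences from −0.01 to 0.18 in a bin where 50.5% of genes lay above the all-gene median.

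The remaining genes of the pathway were grouped by role. These lists too were drawn up with results of these arrays known. Over all genes, 1.21% were at least 1.5-fold higher and 4.83% at least 1.5-fold lower. The few calls in the lists are to be read beside those shares, and no test of them was made. The atypical IkB proteins and IkB-related regulators came first: all 6 measured genes lay above the all-gene median, with a median log2 difference of 0.11 and a narrow range of 0.06 to 0.17. The nuclear IkB proteins Bcl3 (6383 and 8199; 0.16 ± 0.20), Nfkbiz (281 and 354; 0.13 ± 0.20) and Nfkbid (586 and 719; 0.09 ± 0.20) modulate dimers already on DNA. Nfkbil1 was at 0.17, and the Ras-like IkB regulators Nkiras1 and Nkiras2 were at 0.06 and 0.09, with 0.38 at the second probe of Nkiras2. As scaled here, none of the 6 passed 1.5-fold or exceeded its error.

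The IkB kinases and the kinases above them were centred on the median of all genes. Of 17 measured genes, 11 lay above the all-gene median, and the group's median was −0.01. The catalytic kinase subunits were at 0.13 for Chuk (other probe 0.06) and −0.03 for Ikbkb, and the scaffold subunit Ikbkg was at 0.15 (other probe 0.07). Map3k14, which encodes NIK of the noncanonical branch, read 45.2 and 57.1, a log2 difference of 0.13 ± 0.23. The adaptors of the kinase TAK1 stood highest, Tab2 at 0.34 but −0.06 at its other probe, and Tab3 at 0.18. Of the 17 genes detected on both arrays, Map3k3 was the only one past 1.5-fold, where 1.21% of all genes were higher and 4.83% lower. It read 436 untreated and 325 with BSP-II, a log2 difference of −0.63 ± 0.20. Tbk1 was next lowest at −0.09, with 0.02 at its other probe. Prkcq, named after its values were seen, was above background on the BSP-II array only, with signals of 7.02 and 275. This was 20.2-fold higher when set against the lowest signal well above background on the untreated array. Its probes disagreed: the other one read 2.92 and 1.94, not well above background on either array.

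Adaptors that couple receptors to the kinases had a median of −0.02, with 9 of 17 above the all-gene median and none past 1.5-fold. Tradd, the adaptor of the TNF receptor, was at 0.24 and Azi2 at 0.10. Traf2 read 2223 and 2069, a log2 difference of −0.31 ± 0.20, and Traf1, itself an NF-kB target, was at −0.20.

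Ubiquitin ligases and deubiquitinases, which attach and remove the chains that carry the signal, had a median of 0.09, with 15 of 20 above the all-gene median and none past 1.5-fold. The highest was Btrc, the receptor of the ligase that marks IkB for degradation, at low signals of 34.6 and 53.1 (0.41 ± 0.23). Pdlim2, which ends signalling by Rela, was at 0.35, and 0.30 by its other probe. Cyld, a deubiquitinase that restrains the pathway, was lowest: 151 and 121, a log2 difference of −0.52 ± 0.21. Peli1 was at −0.24 and, by another probe, −0.33. The target and ligase Birc3 was at 0.14, and Tnip1, a partner of the Tnfaip3 product, at 0.04.

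Receptors had a median of 0.10, and 10 of 15 lay above the all-gene median, with wide scatter. The sign of that median was not stable: it was −0.0095 with the median of each gene's detected probes, and the same with a looser detection rule that measured 19 genes. Against the all-gene median of the same processing it stayed above in 10 of 10 alternatives, by as little as 0.018. Ltbr, the lymphotoxin beta receptor and an entry point to the noncanonical branch, was the only one of the 15 at least 1.5-fold higher: it read 78.2 and 172, a log2 difference of 0.93 ± 0.21, from 1 spot. Il1rap, a chain of the interleukin-1 receptor, was at 0.39 (27.8 and 42.1). Tnfrsf8 was the only one of the 15 at least 1.5-fold lower, at −0.73 ± 0.29 with signals of 23.7 and 16.5. The shares of all genes that far higher and lower were 1.21% and 4.83%. Tlr9, the receptor for unmethylated DNA, was at −0.50 (263 and 214).

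Ligands were mostly dim. Of 7 measured genes, 4 lay above the all-gene median, none passed 1.5-fold and the median was 0.17. That median turned to −0.046 without background subtraction and was 0.38 over the 6 of them in the authors' deposited table. Ltb, a subunit of the lymphotoxin that binds Ltbr, was the bright exception, with 6510 and 10819 and a log2 difference of 0.53 ± 0.20. Tnfsf9 (14.3 and 23.7) was at 0.52, Il18 (10 spots) at −0.33 and Tnfsf14 at −0.33.

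Transcription partners had a median of −0.05, with 7 of 19 above the all-gene median. Ncoa1, a coactivator, was at 0.46 and the methyltransferase Setd6 at 0.21. Irf4, a factor of plasma cells, was at −0.25 (2967 and 2867). The coactivator Crebbp was at −0.68 with dim signals of 31.7 and 22.7, the only one past 1.5-fold. Among all genes, 1.21% were that far higher and 4.83% that far lower.

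Target genes outside the members had a median slightly below that of all genes. Of 48 listed, 29 were measured, and their median was −0.05, against −0.03 for all genes. Of the 29, 10 lay above the all-gene median, where 50% of all genes lie by definition. Of these 29, only Fas, a death receptor measured by 10 spots, was at least 1.5-fold higher (732 and 1358, log2 difference 0.69 ± 0.06). None of the 29 was 1.5-fold lower. The shares over all genes were 1.21% higher and 4.83% lower. The error of Fas is that of the mean of 10 spots of 1 probe, so it cannot be set beside the single-spot errors of other genes. Cd80, a costimulatory protein, was at 0.54 (67.8 and 114). The chemokine Ccl5 was at −0.39 (72.1 and 63.5) and the homing receptor Cxcr5 at −0.31. Of the other targets with a probe, 12 were not well above background on either array, among them the inducible cytokines Il6 (2.77 and 2.23) and Csf2 (2.68 and 2.20). Vcam1, an adhesion protein, was above background untreated only (14.8 and 7.70), 2.22-fold lower after scaling. That fold rests on 1 spot near background, and the other probe of Vcam1 read 2.97 and 1.96, not well above background on either array. Cxcl10 (4.11 and 10.3), Irf8 (11.5 and 8.87) and Pdgfb (8.83 and 11.1) were above background on the BSP-II array only. Their signals are too near background to give a direction. Il6, Csf2, Vcam1, Cxcl10, Irf8 and Pdgfb were named after their values were seen. The difference between the members and these targets was not tested.

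**Figure D4:**
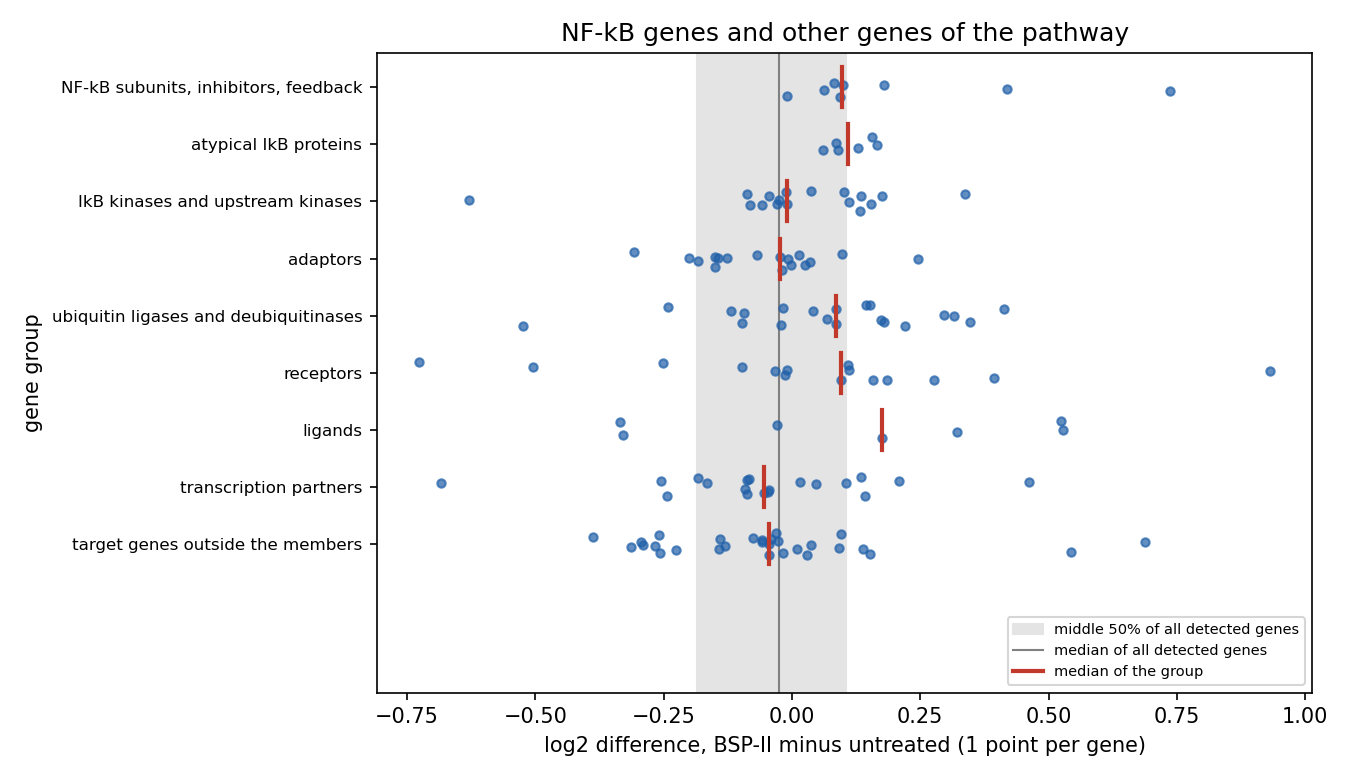
Log2 difference (BSP-II minus untreated) of each detected gene, 1 point per gene, in the NF-kB members (top row) and 8 other groups of the pathway, with the group's median in red and the middle 50% of all detected genes as a band. The members and the atypical IkB proteins lie to the right of the all-gene median (grey line). The target genes outside the members lie on both sides of it, 10 of 29 to the right, with a median of −0.05.

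The kappaB match could also be read across the array. Of the 10357 detected genes in the promoter table, 1050 had the consensus within 250 bases before a start. Their median log2 difference was 0.00, and 55.0% lay above the all-gene median. For the 9307 genes without a match these were −0.03 and 49.3%. At least 1.5-fold higher were 16 genes (1.52%) with a match and 99 (1.06%) without, and at least 1.5-fold lower were 4.86% and 4.80%. By this definition the detected members with a match, Ier3 among them, belong to the genes with a match, and they were chosen with their values known. No test was made of the shares, and genes with and without a match differ in ways not examined here, such as base composition.

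The authors' deposited table held 9 of the 10 member probes, all but that of Rel. In the authors' deposited table the log2 differences were 0.86 for Ier3, 0.54 for Nfkbie, 0.30 for Nfkb2, 0.22 for Nfkbia and Tnfaip3, 0.21 for Relb, 0.19 and 0.15 for the probes of Rela and 0.11 for Nfkbib. The order of the genes was close to that above, and every value was higher, by 0.12, about the shift that setting the array medians equal gives. Over 10 other ways of processing, the difference ran from 0.18 to 0.31 for Nfkb2, from 0.10 to 0.22 for Nfkbia, from 0.08 to 0.22 for Tnfaip3, from 0.02 to 0.21 for Relb and from 0.04 to 0.19 for Rela. Over the 9 that kept them, it ran from 0.42 to 0.86 for Ier3 and from 0.01 to 0.54 for Nfkbie.

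**Figure D5:**
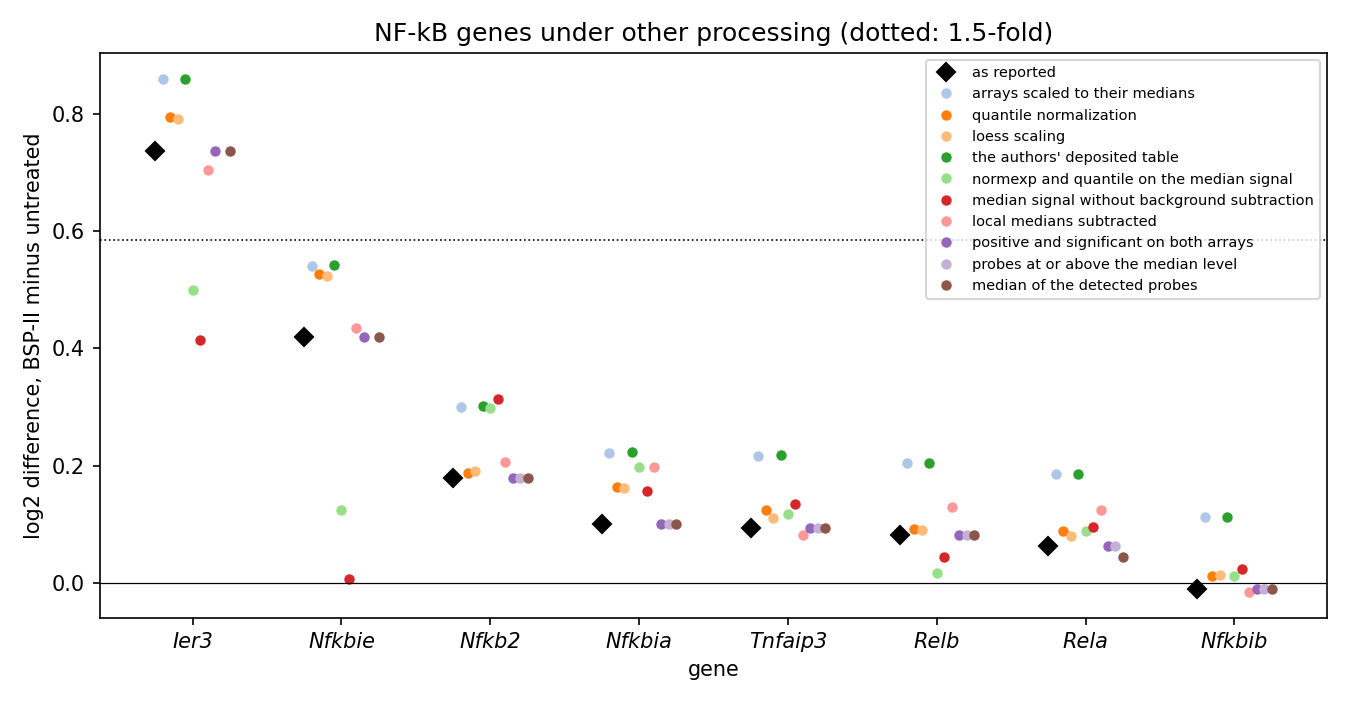
Log2 difference of each detected member as reported (black diamonds) and under 10 other ways of processing (coloured points); the dotted line marks 1.5-fold. Ier3 stays the highest member under each processing that keeps it, Nfkbie falls to 0.01 without background subtraction, and Nfkbib lies on both sides of 0.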

How the data were processed

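The members and all gene lists were chosen with earlier results of these data known. Per the submitters' processing notes, the authors used Agilent Feature Extraction 10.5.1.1. Per the file headers, the deposited intensity columns hold the raw median brightness of each spot and its local background, and a background-subtracted processed signal with its error. The deposited flags (other) mark outliers, saturation and detection. The authors' deposited value table is on a log2 scale: it equals the log2 processed signal plus a constant of −4.85 (untreated) or −4.94 (BSP-II) for 99.7% of its 23296 probes (within 0.0001), with column medians of 2.88 and 2.99. The choice of these constants is unknown.

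Each array was scaled by subtracting the log2 of its 75th percentile from the log2 processed signals. Control spots and 189 outlier spots were left out, spots of a probe were averaged, and a probe counted as detected where most of its spots were well above background. Probes were named by unversioned accession through RefSeq (GRCm38.p6, names only, since the array grid uses mm9): 25091 (61.0%) matched. A gene took its brightest probe. Where a gene was detected on 1 array only, its fold was taken against the lowest signal well above background on the other array. Its own signal there was used instead if higher. Some brighter spots failed detection, so such a fold is not a strict lower bound. Signal bins divide the 12855 genes by mean level. Named genes are the members, the 2 highest and 2 lowest genes of each list, and Chuk, Ikbkb, Ikbkg, Map3k14, Bcl3, Nfkbid, Nfkbiz, Cyld, Tnip1 and Birc3. The steps were tested on simulated data. Python 3.11.15, numpy 2.4.6, pandas 2.3.3, R 4.3.3 and limma 3.58.1 (normexp with offset 50, quantile, loess) were used. The number of arrays limits the precision.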

Additional observations from a re-analysis of the deposited data

How the results depend on the processing

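No paired analysis was possible because the groups share only 1 replicate number, and leaving out a replicate would leave a dose without an array. The log2 difference of a gene counted as moved when it changed by its software error or more. A count did so when it changed more than 1.5-fold, or to 0. A group median was held to the members' median single-spot error of 0.20. That limit is wider than the 0.12 that median scaling adds, so a median that stayed within it says little. The median log2 difference of the members was 0.10 and ran from 0.09 to 0.22 over 10 alternatives, and against the all-gene median of the same processing from 0.09 to 0.15. The number of members at least 1.5-fold higher was 1, against 1.21% of all genes. It was 0 with normexp (0.241% of all genes), without background subtraction (0.257%) and with probes at or above the median level (0.392%). The last of these settings leaves out Ier3 and Nfkbie. The number was 2 at a lower threshold (0.32 on the log2 scale), where the share of all genes was not computed. At 2-fold it was 0, against 0.202% of all genes. None was 1.5-fold lower under any of the 10 alternatives. All 8 members lay above the all-gene median, 7 with local medians subtracted, and 5 of the 6 kept with probes at or above the median level. Nfkbib turned sign, from −0.02 to 0.11; the other 7 stayed above 0. The median of the ligands fell from 0.17 to −0.046 without background subtraction. The other pathway medians changed by less than that wide limit, and those of the kinases, adaptors, receptors, transcription partners and target genes took both signs. Those signs shift with the scaling constant. Against the all-gene median of the same processing, the kinases and receptors lay above it in 10 of 10 alternatives. The adaptors did so in 3, the transcription partners in 1 and the target genes in 0. Signal over background limits Nfkbie and Ier3.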
